A study of Mus musculus with 6 samples.

Results

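The desmosome genes described here were 10 of the 23420 genes of a count table of mouse retinal RNA, taken as the rows with the symbols Dsp, Ppl, Jup, Pkp1, Pkp3, Perp, Dsc2, Dsc3, Dsg2 and Dsg1a. All 10 symbols were found. The study asked how minocycline, a tetracycline antibiotic that dampens microglia, changes gene expression in a retina damaged by bright light. RNA was sequenced from 6 libraries, 2 biological replicates each of control retinas, of retinas 4 days after light exposure, and of light-exposed retinas from mice that also received minocycline. The sample labels give the strain CD1 for every library, light of 10000 lux for 1 h, and daily intraperitoneal minocycline at 45 mg/kg for 4 days. The methods describe albino BALB/cJ mice of both sexes, 10 to 14 weeks old, light of 15000 lux, and minocycline for 5 days with extra injections at the start. The labels of the control and light-exposed groups name no injection of solvent, and the sources used here do not say whether a library held 1 retina or several. The columns of the minocycline group have identical headers and are named A and B, an order with no meaning.

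Desmosomes are adhesive junctions that tie the intermediate filaments of neighbouring cells together and are abundant in tissues under mechanical load, such as epidermis, cornea and heart. Desmogleins and desmocollins are cadherins that bridge the gap between cells, plakoglobin and the plakophilins are armadillo proteins that bind the cadherin tails, and desmoplakin links this plaque to keratin, desmin or vimentin filaments. The neural retina has few desmosomes, while the corneal and conjunctival epithelia at the front of the eye are rich in them.

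Libraries held 15205930 to 22856922 counts. Levels are given as CPM, the usual scaling of counts by library size, here after TMM adjustment, and 0 counts in a library allow a level of up to 0.131 to 0.214 CPM, for counting error only. The label of retina was checked with 7 rod genes, whose summed level was 40332 to 98036 CPM. Control 1 was the only library with Xist in quantity, at 77778 counts against 25 to 188 elsewhere, and held 11 counts of 4 Y-linked genes against 6532 to 12858. Light-exposed replicate 1 held lens crystallin and fibre genes at a summed level of 192 CPM, against 0.281 to 18.1 CPM elsewhere. Light-exposed replicate 2 had the highest level of 7 microglial genes, 667 CPM against 211 CPM in replicate 1. Endothelial markers summed to 133 to 284 CPM and those of Müller glia to 1456 to 2583 CPM over the 6 libraries. In light-exposed against control retinas, edgeR adjusted p was under 0.05 for the microglial genes Aif1, Cx3cr1 and P2ry12 (log2 differences of 2.72, 3.82 and 1.73), the endothelial Kdr (0.87), the glial Slc1a3 (1.13) and the rod factor Nrl (-0.96). In whole retina, fewer cells of a type and less RNA per cell cannot be told apart.

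The main pattern was a higher level of desmosome RNA in both minocycline libraries. The length-scaled level of all 10 genes together, in CPM per kilobase of exon, was 5.27 and 4.97 in the controls, 5.37 and 6.77 after light, and 13.8 and 20.2 in minocycline A and B. Group means were 5.12 ± 0.211, 6.07 ± 0.991 and 17.0 ± 4.57 (SD, n = 2 each), so the minocycline libraries stood apart from the other 4. Dsp had the smallest adjusted p of the set with minocycline, and Perp gave the largest part of the added level per kilobase. Every one of the 10 genes had both minocycline libraries above both light-exposed libraries, a pattern that 26.8% of all tested genes showed.

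**Figure D1:**
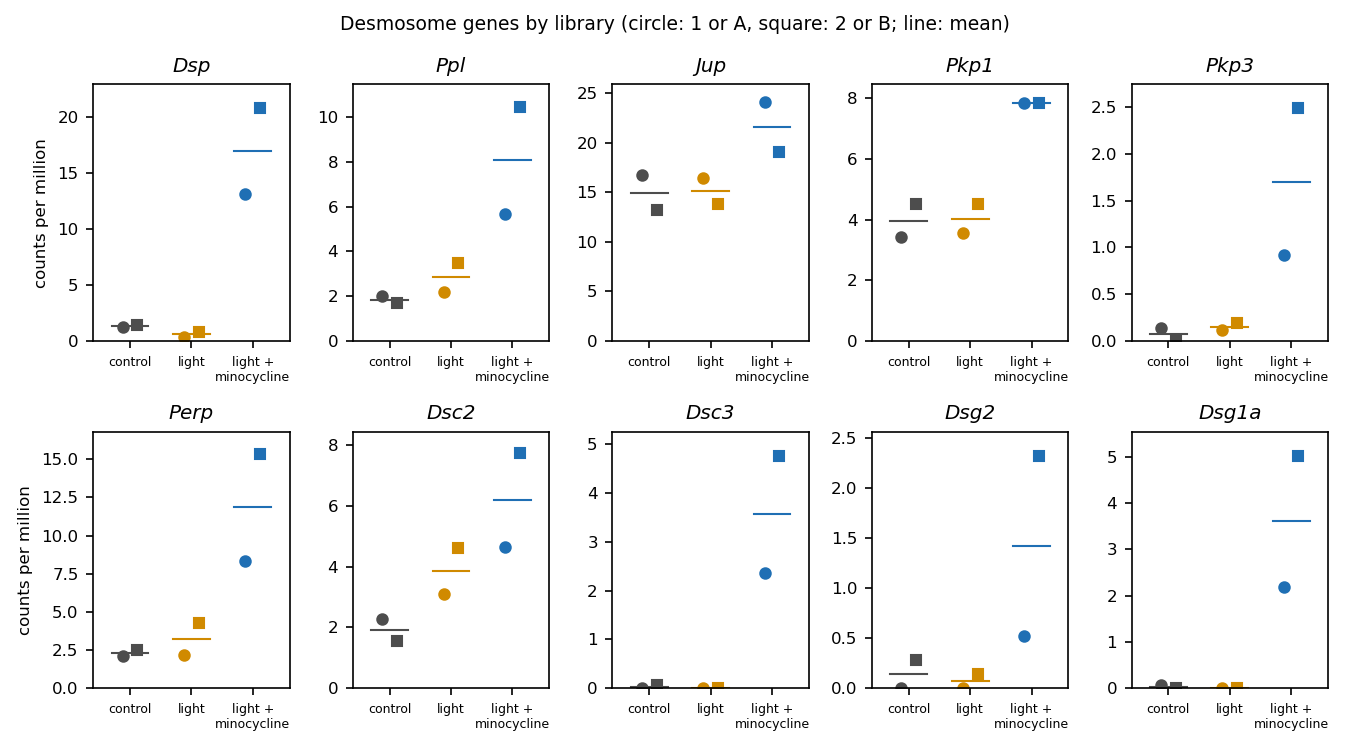
Level of each desmosome gene in CPM (y axis, linear, from 0) in the 2 control, 2 light-exposed and 2 minocycline libraries, with a point per library and a line at the group mean. Dsp reached 13.2 and 20.8 CPM with minocycline against at most 1.41 CPM in the other 4 libraries, whereas Jup measured 13.2 to 16.7 CPM in those 4 and 24.1 and 19.0 CPM with minocycline.

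Pairs of groups were tested by the quasi-likelihood method of edgeR over all genes that passed its filter on low counts. A call required a Benjamini-Hochberg adjusted p below 0.05 together with a log2 fold change of 2 or more in size. In light-exposed against control retinas, 6 of the 10 genes could be tested and 0 were called, where 2.92% of all tested genes were. At an unadjusted p under 0.05 this was 1 gene, Dsc2, of the 6 against 28.9% of all genes, and DESeq2 also called 0. In minocycline against light-exposed retinas, 1 of 10 genes was called higher (Dsp), where 0.0136% of all tested genes, 2 in number, were. In minocycline against control retinas, 3 of 9 tested genes were called higher (Dsp, Dsc3 and Dsg1a), where 0.134% of all genes were, and both minocycline libraries exceeded both controls for 9 of 9, against 15.5% of all genes. These 3 genes are among those the study listed from the same libraries, and all 10 were chosen with earlier results of these data known. Neither this count nor the others given here, set beside the shares of all genes, are therefore independent evidence. Pkp3, Dsc3 and Dsg1a in both comparisons, and Dsg2 against light, passed the filter only through their minocycline counts, so that they had to differ. Dsp, with 6 and 18 counts after light, also needed a minocycline library to pass against light. The counts over the tested genes include these genes. With these limits, 9 of 10 genes were higher than after light at an unadjusted p under 0.05 (9.04% of all genes) and 7 of 10 by the adjusted p of DESeq2 (2.9%). Against control these counts were 9 of 9 (5.39%) and 5 of 10 (1.09%). The 2 minocycline comparisons also share the minocycline libraries.

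Over the tested genes of the set, the median log2 fold change was 0.26 after light (0.035 for the same 6 genes without light-exposed replicate 2), 2.64 with minocycline against light and 2.38 with minocycline against control, while the medians of all tested genes were 0.00, 0.01 and 0.02. For the 6 genes with more than 4 counts in at least 1 reference library the median was 1.24 against light, with a range of 0.52 to 4.78, and 1.95 against control, with a range of 0.57 to 3.73. The fold changes within the set thus spanned a wide range. Of the 6 genes tested after light alone, Ppl, Perp, Pkp1 and Jup had log2 differences of 0.65 ± 0.40, 0.49 ± 0.41, 0.03 ± 0.35 and 0.03 ± 0.22 from control, with edgeR adjusted p of 0.317, 0.471, 0.959 and 0.953. Without light-exposed replicate 2 the values of Ppl and Perp were 0.27 and -0.072, and those of Pkp1 and Jup also took either sign when single libraries were left out.

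**Figure D2:**
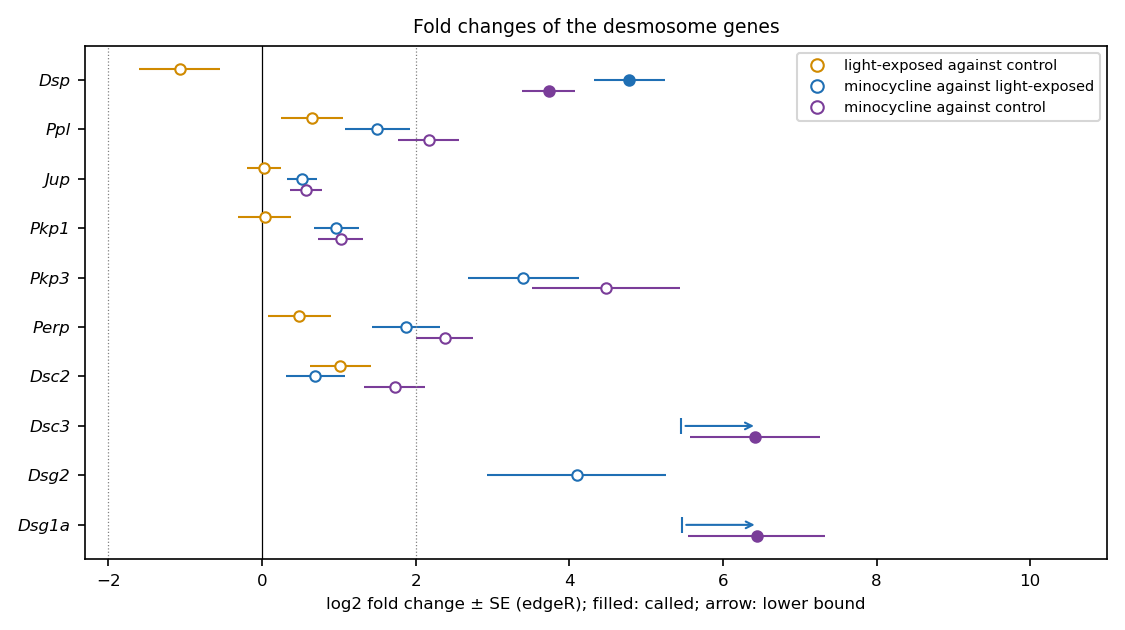
Log2 fold change (x axis) of each desmosome gene in the 3 comparisons by edgeR, with bars for the standard error, filled points for called genes, dotted lines at the fold cutoff and arrows from the lower bound where the light-exposed libraries held no count. Dsp was called in both minocycline comparisons at 4.78 and 3.73, and the fitted values of Dsc3, Dsg1a and Pkp3 against control and of Dsg2 against light rest on 1 to 3 reference counts.

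Dsp encodes desmoplakin, the plakin that anchors intermediate filaments to the plaque. It lies at chr13:38151294-38198577 on the plus strand (GRCm38), and 499 of its exonic bases are shared with Gm10129 on the opposite strand. Its level was 1.21 and 1.41 CPM in the controls, 0.349 and 0.853 CPM in light-exposed replicates 1 and 2, and 13.2 and 20.8 CPM in minocycline A and B. The counts behind these levels were 17, 20, 6, 18, 301 and 393. Both light-exposed libraries lay below both controls and both minocycline libraries far above all others, without overlap between any of the groups.

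Against light-exposed retinas, Dsp was higher by 4.78 ± 0.47 (log2 ± SE, n = 2 per group), 27.5-fold, with an edgeR adjusted p of 0.0444. The call was lost with RLE factors, total library size or upper quartile scaling in place of TMM (edgeR adjusted p of 0.0604, 0.0986 and 0.0532) and when control replicate 1 or 2 was left out of a joint fit (0.0531 and 0.0546), and over all alternatives the adjusted p was 5.0e-21 to 0.0986 with the fold change positive in every one. Without light-exposed replicate 1, the library with lens RNA, the difference was 4.30 and the adjusted p 0.00137. Against control retinas Dsp was higher by 3.73 ± 0.35, 13.3-fold, with an edgeR adjusted p of 0.0356. This call was lost without control replicate 1 (3.58, adjusted p = 0.314), the only library with Xist in quantity, and without control replicate 2 (adjusted p = 0.502). It was also lost in the joint fit of all libraries (3.69, adjusted p = 0.0519) and with shrunken DESeq2 values, where the log2 difference of 1.80 was under the fold cutoff. After light alone Dsp was at 0.475 of the control level, a log2 fold change of -1.07 ± 0.52, which did not pass the test (edgeR adjusted p = 0.203). It was -0.62 without light-exposed replicate 1, the library with lens RNA, and -1.88 without replicate 2.

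Ppl encodes periplakin, a second plakin of epithelial cells that is found at desmosomes and in the cornified envelope. It measured 2.00 and 1.69 CPM in the controls, 2.21 and 3.51 CPM after light, and 5.68 and 10.5 CPM with minocycline. The 3 groups did not overlap, and light-exposed replicate 2 and minocycline B were the higher libraries of their groups. The log2 difference was 1.504 ± 0.42 against light (edgeR adjusted p = 0.115) and 2.17 ± 0.40 against control (adjusted p = 0.104), and neither was called.

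The sequence before the gene start is shown for Dsp, the gene with the largest length-scaled share of the change among the called genes, and for Jup, the most abundant member in control retinas, whose levels behaved so differently. These were the only 2 of the 10 genes matched in the promoter table (RefSeq, GRCm38.p6), and each line gives the 250 bases before the start, 5′ to 3′ on the strand of the gene. Capitals mark matches on either strand to the GC box GGGCGG or the CCAAT box CCAAT. The windows are chr13:38151044-38151293 on the plus strand for Dsp and chr11:100397791-100398040 on the minus strand for Jup.
Dsp: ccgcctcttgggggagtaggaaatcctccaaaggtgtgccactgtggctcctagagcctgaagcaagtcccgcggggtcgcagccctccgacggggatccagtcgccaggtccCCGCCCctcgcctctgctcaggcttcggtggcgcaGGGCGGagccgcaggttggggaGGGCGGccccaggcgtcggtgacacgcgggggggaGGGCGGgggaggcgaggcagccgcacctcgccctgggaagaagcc
Jup: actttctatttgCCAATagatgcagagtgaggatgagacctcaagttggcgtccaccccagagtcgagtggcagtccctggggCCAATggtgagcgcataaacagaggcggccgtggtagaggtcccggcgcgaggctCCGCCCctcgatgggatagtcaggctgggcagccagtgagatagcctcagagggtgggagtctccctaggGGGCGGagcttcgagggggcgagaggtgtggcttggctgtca

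The Dsp window was 72.4% G and C and held 4 GC boxes, 3 of them on the strand of the gene at 102, 80 and 45 bases before the start. The Jup window was 62% G and C and held 2 GC boxes and 2 CCAAT boxes. No TATAAA and no CACCTG, the E-box bound by Snail-type factors, was found in either window on either strand. Among all 32851 promoters of the table, windows of the same length held GGGCGG in 32.7%, CCAAT in 33.8%, TATAAA in 12.4% and CACCTG in 17.2%. These are matches of letters, not sites shown to be bound.

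Jup encodes plakoglobin, the armadillo protein shared by desmosomes and adherens junctions. It lies at chr11:100368958-100397763 on the minus strand (GRCm38) and had the highest group mean per length of the set in control and light-exposed retinas. In light-exposed replicate 2 alone, Perp was slightly above Jup (2.18 against 2.15 CPM per kb). The level of Jup was 16.7 and 13.2 CPM in the controls, 16.4 and 13.8 CPM after light, and 24.1 and 19.0 CPM with minocycline. Control and light-exposed libraries overlapped fully, and the fold difference of the minocycline libraries was the smallest of the set. The log2 difference was 0.52 ± 0.19 for minocycline against light (edgeR adjusted p = 0.185) and 0.57 ± 0.21 for minocycline against control (adjusted p = 0.598).

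Pkp1 encodes plakophilin 1, which strengthens the plaque of stratified epithelia. It measured 3.43 and 4.498 CPM in the controls, 3.55 and 4.502 CPM after light, and 7.83 CPM in each minocycline library. The control and light-exposed libraries overlapped. The log2 difference with minocycline was 0.97 ± 0.29 against light (edgeR adjusted p = 0.129) and 1.02 ± 0.30 against control (adjusted p = 0.367). Pkp3, plakophilin 3, a plaque protein of many epithelia, was near the limit of detection without minocycline, with 2 and 0 counts in the controls and 2 and 4 after light. Minocycline A and B held 21 and 47 counts, or 0.918 and 2.49 CPM. Summed over libraries, Pkp3 was 10.4-fold higher than after light (95% counting interval 4.53 to 29.3) and 22.98-fold higher than in control (6.12 to 194). Neither difference was called, with edgeR adjusted p of 0.0772 and 0.172.

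Perp encodes a tetraspan membrane protein of desmosomes that is a target of p53 and p63. Its level was 2.14 and 2.53 CPM in the controls, 2.21 and 4.26 CPM after light, and 8.35 and 15.3 CPM with minocycline. Both minocycline libraries exceeded the other 4, and light-exposed replicate 2 exceeded both controls while replicate 1 lay between them. The log2 difference was 1.87 ± 0.44 against light (edgeR adjusted p = 0.0901) and 2.38 ± 0.37 against control (adjusted p = 0.0680). Perp is short, at 1952 exonic bases, and so weighed heavily per length.

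Per kilobase, the order in the controls was Jup, at 2.32 ± 0.383 CPM per kb, then Perp at 1.196 ± 0.141, Pkp1 at 0.789 ± 0.151, Dsc2 at 0.363 ± 0.0988 and Ppl at 0.267 ± 0.0319 (SD, n = 2), followed by Dsp, Pkp3, Dsg2, Dsc3 and Dsg1a. The libraries of neighbours did not overlap down to Dsp, and the last 4 genes overlapped. With minocycline it was Perp at 6.07 ± 2.53, Jup at 3.35 ± 0.555, Dsp at 1.76 ± 0.558 and Pkp1 at 1.56. Perp was above Jup in both libraries there, whereas Dsp was below Pkp1 in A and above it in B. Jup gave 49.2% and 41.3% of the summed control level but 27.2% and 14.6% in libraries A and B, whereas the share of Dsp went from 0.674% and 1.30% after light to 9.89% and 10.6%. Of the difference between the minocycline and light-exposed means, 40.3% was Perp, 15.5% Dsp and 9.14% Jup. The order depends on the length used, since Jup has 6436 bases over all its exons and 3205 in its longest transcript. With the longest transcript, Jup was above Perp in minocycline A (7.52 against 4.28 CPM per kb) and below it in B (5.94 against 7.86), and Perp, Jup and Dsp gave 35.7%, 16.3% and 13.8% of the difference. With the coding length these 3 genes gave 55.6%, 10.8% and 7.08%.

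**Figure D3:**
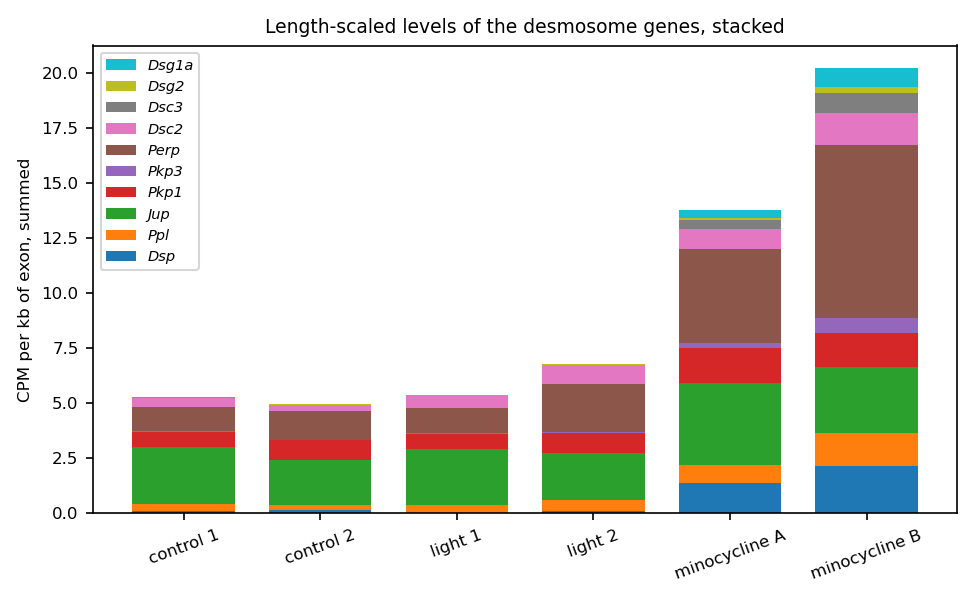
Stacked length-scaled levels of the 10 desmosome genes (y axis, CPM per kb of exon) in each of the 6 libraries. The column grew from 4.97 to 6.77 in control and light-exposed libraries to 13.8 and 20.2 with minocycline, with Dsp forming a larger part and Jup a smaller one in both minocycline libraries.

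The 4 desmosomal cadherins lie in 1 cluster on chromosome 18. Dsc2, desmocollin 2, the form most widely found in simple and stratified epithelia, was the only cadherin with more than 4 counts in any library without minocycline. It measured 2.28 and 1.55 CPM in the controls, 3.09 and 4.597 CPM after light, and 4.64 and 7.72 CPM with minocycline. The groups did not overlap, although light-exposed replicate 2 and minocycline A lay close together. Light-exposed replicate 2 also had the highest microglial level, whose part was not tested. The log2 difference of light against control was 1.02 ± 0.40 (edgeR adjusted p = 0.118), that of minocycline against light 0.69 ± 0.38 (adjusted p = 0.353) and that of minocycline against control 1.73 ± 0.40 (adjusted p = 0.196).

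Dsc3, desmocollin 3, and Dsg1a, a desmoglein 1 gene, are cadherins of stratified epithelia. Dsc3 had 0 and 1 counts in the controls, 0 in both light-exposed libraries, and 54 and 90 counts, or 2.36 and 4.76 CPM, in minocycline A and B. Dsg1a had 1 and 0 counts, 0 in both light-exposed libraries, and 50 and 95 counts, or 2.19 and 5.03 CPM. Both genes were thus close to absent without minocycline and clearly present in each library with it. Against the light-exposed group, taken at a limit of 3 counts over the group, Dsc3 was at least 44.0-fold and Dsg1a at least 44.3-fold higher, and neither was called (edgeR adjusted p = 0.0691 for both). Against control the summed counts gave 97.3-fold for Dsc3 (95% counting interval 17.2 to 3871) and 98.0-fold for Dsg1a (17.3 to 3898), and both were called with edgeR adjusted p of 0.0366 and 0.0448. Over the alternatives these adjusted p ranged from 2.0e-06 to 0.624 for Dsc3 and from 8.0e-06 to 0.993 for Dsg1a, and each was called in 9 of 14. Dsg1a has near-identical neighbours, Dsg1b and Dsg1c, so that the division of reads among them is uncertain.

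Dsg2, desmoglein 2, the form of simple epithelia and heart, had 0 and 4 counts in the controls, 0 and 3 after light, and 12 and 44 with minocycline. Its library B level, 2.33 CPM, was 4.43 times that of library A, 0.525 CPM, the widest ratio of the set. It was 17.1-fold higher than after light (95% counting interval 5.56 to 85.4), which was not called (edgeR adjusted p = 0.127). Against control it did not pass the filter of the main test. In the 8 alternatives that tested it there, its log2 fold change was positive, from 0.285 to 7.73. A stretch of 330 exonic bases of Dsg2 is shared with an antisense gene, Gm16090. The kit marks the strand of the RNA, and its use in counting is not given in the sources used here.

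The mix of cadherins is given as shares of counts within a library, which do not depend on library scaling. These shares are a description, since Dsc3 and Dsg1a were measurable only with minocycline, and their intervals cover counting error and not the spread between replicates. Dsc2 made up 100% and 95.7% of the counts of Dsc2 and Dsc3 in the controls and 100% in both light-exposed libraries. In minocycline A it made up 66.3% (95% Wilson interval 58.6 to 73.1) and in B 61.9% (55.5 to 67.8). The share of Dsg2 in the counts of Dsg1a and Dsg2 was 19.4% (11.4 to 30.9) in A and 31.7% (24.5 to 39.8) in B, intervals that overlap, and the other libraries held at most 4 counts of the pair.

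Other desmosome genes were read from a list of 10. No member of that list was called. Dsg3, the desmoglein of basal epidermal cells, had 0 counts in every library without minocycline and 19 and 45 with it, at least 19.5-fold higher than after light and at least 14.4-fold higher than in control. Evpl, envoplakin, the partner of periplakin, measured 2.71 and 3.30 CPM in the controls, 2.97 and 1.94 CPM after light and 6.17 and 13.6 CPM with minocycline, a log2 difference of 2.03 ± 0.47 against light (edgeR adjusted p = 0.0871). Pkp2, the plakophilin of simple epithelia and heart, instead measured 14.2 and 13.4, 19.5 and 18.1, and 15.2 and 14.5 CPM in these groups. It was lower with minocycline than after light by a log2 value of -0.33 ± 0.17 (adjusted p = 0.329). Kazn, kazrin, a partner of periplakin, was higher after light with a log2 fold change of 0.85 ± 0.20 and an edgeR adjusted p of 0.0257. Dsg1c and Dsg4 had no count anywhere. With minocycline against light, 0 of 6 tested genes of this list passed an adjusted p of 0.05 by edgeR and 2 did by DESeq2, with 3 higher and 1 lower at an unadjusted p under 0.05, where 9.04% of all tested genes were higher and 12.1% lower. One of the 3 higher genes is Dsg3, which entered the test only through its minocycline counts. The lower one was Kazn, at -0.60 ± 0.19 (edgeR adjusted p = 0.143).

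Genes of neighbouring structures did not share one pattern. Of 13 adherens junction genes and 8 tight junction genes, all tested with minocycline against light, 0 passed the adjusted test by edgeR, 1 and 0 were higher at an unadjusted p under 0.05, and 1 and 0 passed by DESeq2. Their median log2 fold changes were 0.01 and -0.08. Of 8 tested hemidesmosome genes, which anchor epithelial cells to the basement membrane, 0 passed by edgeR, 1 was higher and 3 lower at an unadjusted p under 0.05, and DESeq2 passed 1 higher and 2 lower. Over all genes 9.04% were higher and 12.1% lower at an unadjusted p under 0.05, and DESeq2 passed 2.9% as higher and 4.62% as lower. The hemidesmosome median was -0.60. After light, Itga6, Itgb4 and Cd151 of this list were higher than in control by 1.98 ± 0.41, 1.81 ± 0.46 and 1.25 ± 0.23 (log2 ± SE), with edgeR adjusted p of 0.0210, 0.0328 and 0.0155. The adherens junction cadherin Cdh2 was higher by 0.62 ± 0.16 (adjusted p = 0.0326).

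Among 17 intermediate filament genes, the filaments that desmoplakin binds, Vim and Gfap of glia were higher after light by 1.71 ± 0.28 and 2.02 ± 0.29 (edgeR adjusted p of 0.0197 and 0.0154), as was Krt15 by 2.19 ± 0.63 (0.0476). With minocycline against light 0 of 11 tested passed by edgeR, 6 were higher and 2 lower at an unadjusted p under 0.05, and DESeq2 passed 5 higher and 2 lower. Krt6b and Krt13 among the 6 passed the filter in both minocycline comparisons only through their minocycline counts. Of 10 tested epithelial transcription factors 0 passed by edgeR, 6 were higher at an unadjusted p under 0.05 and 3 passed by DESeq2, with a median log2 fold change of 1.27. Trp63, Grhl2 and Elf3 among the 6 passed the filter in both minocycline comparisons only with the help of their minocycline counts. The count and the median are thus partly set by the filter. Of 2 tested cornified envelope genes 0 passed by edgeR, while both were higher at an unadjusted p under 0.05 and by DESeq2. Against control, 0 genes of these 7 lists passed by edgeR, where 5.39% of all tested genes were higher at an unadjusted p under 0.05. The corresponding counts were 3 of 5 other desmosome genes, 3 of 13 adherens junction, 3 of 7 hemidesmosome, 0 of 8 tight junction, 8 of 11 intermediate filament, 2 of 2 cornified envelope and 7 of 10 transcription factor genes. DESeq2 passed 2, 1, 1, 0, 3, 2 and 2 genes of these lists in the same order, all higher, where it passed 1.09% of all its genes as higher.

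Markers of the corneal epithelium were likewise at their highest in the minocycline libraries. Krt12, the keratin that defines this epithelium, had 36 and 6 counts in the controls, 43 and 128 after light, and 1798 and 2405 with minocycline. Krt5, a basal keratin, had 58 and 2, 32 and 100, and 1174 and 1360 counts, and Aldh3a1, a corneal crystallin, 21 and 2, 16 and 66, and 1039 and 830. Krt14, the usual partner of Krt5, was nearly absent, with at most 1 count without minocycline and 15 and 6 with it. The summed level of all 12 corneal markers was 1.55 to 9.28 CPM in control, 7.51 to 16.5 CPM after light and 189 and 267 CPM with minocycline. All 12 markers were higher in both minocycline libraries than in both light-exposed ones, a pattern that 26.8% of all tested genes showed. Krt14 and Epcam among them had too few counts to be tested. Of these markers 1 passed the adjusted test with minocycline against control, Trim29, at 5.38 ± 0.73 (edgeR adjusted p = 0.0366), while 0 passed against light, with 9 of 10 higher at an unadjusted p under 0.05 (9.04% of all genes) and 8 higher by DESeq2 (2.9% of all its genes). No marker of the list was at 0 in every library. The part of these cells in the desmosome result was not tested.

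Markers of 3 other tissues outside the neural retina also had their highest summed levels with minocycline. Those of pigment cells summed to 15.8 to 71.7 CPM without minocycline and 304 and 1376 CPM with it, those of smooth muscle to 6.64 to 19.6 and to 68.7 and 330 CPM, and those of stroma to 10.6 to 15.6 and to 37.3 and 149 CPM. Of these markers, 0 passed the adjusted edgeR test in either minocycline comparison. At an unadjusted p under 0.05, 5 of 5 tested pigment cell, 6 of 6 smooth muscle and 5 of 6 stroma markers were higher than after light (9.04% of all genes). Against control 2 of 5, 4 of 6 and 6 of 6 were higher (5.39% of all genes). Cnn1, Lum and Fbln1 of these lists passed the filter against light only through their minocycline counts, so that they had to differ. DESeq2 passed 5, 7 and 5 markers of the 3 lists as higher against light (2.9% of all its genes) and 1, 1 and 4 against control (1.09%). Genes of the retinal pigment epithelium summed to 127 to 319 CPM without and to 99.04 and 158 CPM with minocycline. Minocycline B exceeded A by 4.52 times for pigment cells, 4.81 times for smooth muscle and 3.98 times for stroma, but by 1.41 times for corneal epithelium. The ratio was 1.07 for rods, 0.772 for Müller glia and 0.742 for endothelium. Among the desmosome genes, the level in B over that in A was 1.58 for Dsp, 1.84 for Ppl and Perp, 1.67 for Dsc2, 2.02 for Dsc3 and 2.30 for Dsg1a. It was 0.790 for Jup, 1.00 for Pkp1, 2.71 for Pkp3 and 4.43 for Dsg2. With 1 library on each side, these ratios carry no replicate check.

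**Figure D4:**
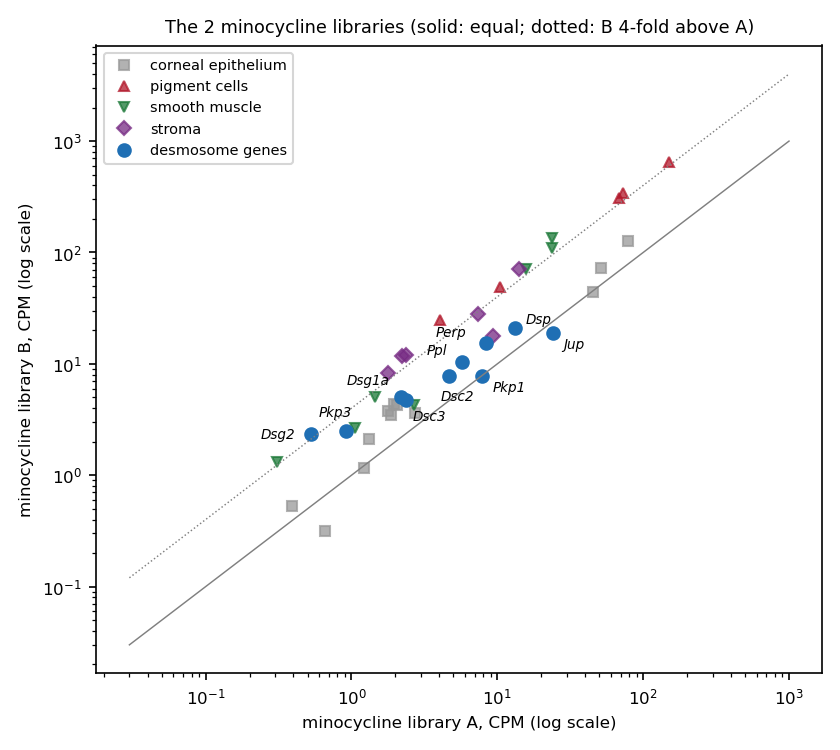
Level of each gene in minocycline library B (y axis, CPM, log scale) against library A (x axis, CPM, log scale) for the 10 desmosome genes and 4 marker lists, with a solid line at equal levels and a dotted line at a 4-fold higher level in B. Most desmosome genes lay between the lines, while Jup at 24.1 and 19.0 CPM lay below equality and Dsg2, at 0.525 and 2.33 CPM, lay above the dotted line.

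The desmosome counts were also set beside Krt12 within each library. Dsp had 16.7 counts per 100 Krt12 counts in minocycline A (95% counting interval 14.8 to 18.9) and 16.3 in B (14.7 to 18.2). In light-exposed replicates 1 and 2 the values were 13.95 (4.85 to 32.9) and 14.06 (8.08 to 23.1), on 6 and 18 Dsp counts. The intervals of these 4 libraries overlapped. In the controls it was 47.2 (24.9 to 86.3) and 333 (129 to 1014), on 36 and 6 Krt12 counts. Jup behaved otherwise, with 650 and 3133 per 100 Krt12 counts in the controls, 656 and 228 after light, and 30.6 and 14.97 with minocycline. The other genes with more than 4 counts in each light-exposed library also had fewer counts per Krt12 count with minocycline. Pkp1 was at 9.96 and 6.15 against 142 and 74.2 after light, Perp at 10.6 and 12.1 against 88.4 and 70.3, Ppl at 7.23 and 8.23 against 88.4 and 57.8, and Dsc2 at 5.90 and 6.07 against 123 and 75.8. The ratio of Dsp to Krt12 was chosen for display after its values were seen and is a description.

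**Figure D5:**
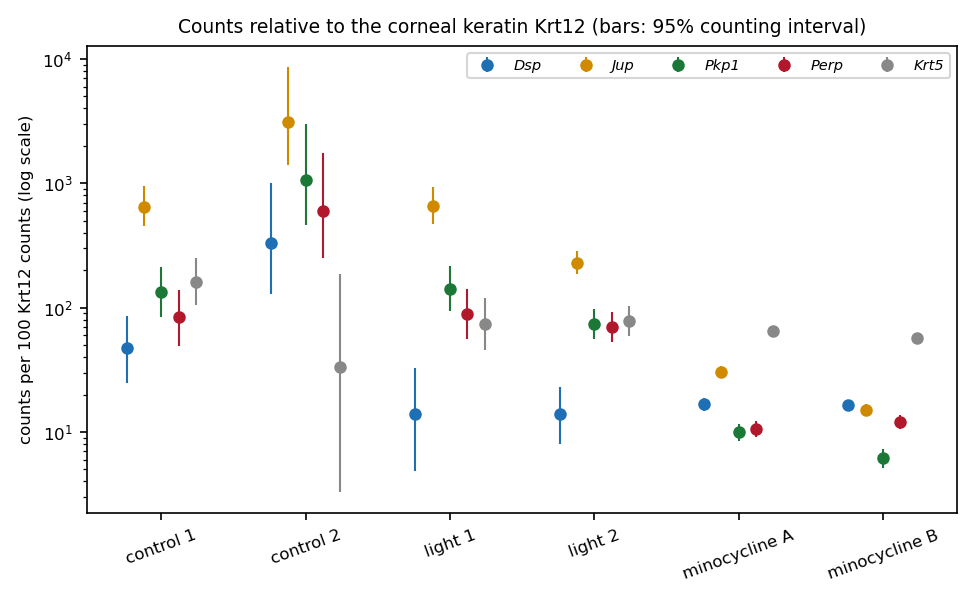
Counts of 4 desmosome genes and Krt5 per 100 counts of the corneal keratin Krt12 (y axis, log scale) in each library, with 95% counting intervals. Dsp lay between 13.95 and 16.7 in the 4 light-exposed libraries with and without minocycline, whereas Jup was at 656 and 228 after light and at 30.6 and 14.97 with minocycline.

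Genes with a course most like that of Dsp were found by the root mean square distance of log2 CPM, centred over the 6 libraries, among 14713 genes. The nearest 5 were Tmprss11a at 0.53, Lypd3 at 0.53, Sdc1 at 0.56, Dsc3 at 0.57 and Gjb2 at 0.57. Tmprss11a encodes a membrane serine protease, Lypd3 a surface protein of stratified epithelia that is also on the corneal list, Sdc1 the proteoglycan syndecan-1 and Gjb2 connexin 26. Since they were chosen for their likeness to Dsp over the same libraries, their own fold changes are not given as results. Dsc3 is the exception, as one of the desmosome genes described above. Among the desmosome genes, Dsg1a ranked 9, Pkp3 57, Perp 86, Ppl 124, Pkp1 226, Dsc2 282 and Jup 647. The nearest to Jup were Fzd10 at 0.06, Scd1 at 0.06, Grb14 at 0.07, Hmgcs1 at 0.08 and Pde7b at 0.09, a Wnt receptor, a fatty acid desaturase, an adaptor protein, an enzyme of cholesterol synthesis and a phosphodiesterase, while the nearest desmosome gene was Pkp1 at rank 6094 and the others ranked 12663 (Dsc2) to 14631 (Dsc3). The distances rest on 6 libraries and on low counts for several of these genes.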

How the data were processed

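RNA of mouse retinas was sequenced in 6 libraries. The authors prepared stranded mRNA libraries, aligned reads to mm10 with STAR within RNA Express, and deposited gene counts. The deposited values for 23420 genes were whole and unscaled, although the data statement calls them normalized. The submitters' processing notes name STAR and DESeq2, and their versions and the gene annotation are not given in the sources used here. Gene coordinates and lengths came from GENCODE vM21 (GRCm38) by symbol, and promoter sequences from RefSeq.

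Pairs of groups were compared in R 4.3.3 by the robust quasi-likelihood F test of edgeR 4.0.16 after filterByExpr and TMM, with Benjamini-Hochberg adjustment over all tested genes. Columns were mapped by their headers, and 0 value columns were left unused. The tests were tried on simulated data. CPM used TMM library sizes, and log2 CPM a prior count of 2. Counting intervals are exact at 95%, and a group without counts was taken at 3 counts. They cover counting error only, since PCR copies are not independent molecules.

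The desmosome genes and all lists (other desmosome genes, adherens junction, hemidesmosome, tight junction, intermediate filaments, cornified envelope, epithelial transcription factors and 10 marker lists) were chosen with earlier results of these data known. Named were the 10 genes, genes of the other lists with an adjusted p under 0.05, 4 corneal markers and the 5 genes nearest to Dsp and to Jup. A few others (Dsg3, Evpl, Pkp2, Dsg1b, Dsg1c and Dsg4, and genes named for low counts without minocycline) were named after their values were seen. Alternatives were RLE factors, total library size, upper quartile, a minimum of 10 counts in each library, no filter, edgeR without robust estimation, DESeq2 1.42.0 with and without shrinkage, a joint fit of all 6 libraries, other gene lengths, the replicate block, and each library left out.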

Additional observations from a re-analysis of the deposited data

How the results depend on the processing

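Scaling and filters decided how many desmosome genes were called with minocycline against light. The count of 1 became 0 with RLE factors, total library size, upper quartile or at least 10 counts in every library (which removed Dsp itself, with 6 counts in light-exposed replicate 1), 4 without a filter, 5 with unshrunken DESeq2 values and 3 in a joint fit of the 6 libraries. The median log2 fold change of 2.64 became 0.96 with at least 10 counts, 0.86 with shrunken DESeq2 values and 1.85 in the joint fit. With each library left out in turn the count was 0 to 6 (6 without minocycline A, 0 without either control) and the median 1.35 to 3.11. Against control the count of 3 became 6 without a filter, 1 with at least 10 counts, 5 with DESeq2, 0 with shrunken values and 0 in the joint fit, and 0 to 6 with libraries left out (6 without minocycline A, 1 without B, 0 without either control). The median of 2.38 became 2.82, 1.95, 2.86 and 0.74 in the first 4 of these, and 1.83 to 3.38 with libraries left out. An adjusted p that DESeq2 gave as NA stayed NA. Fits without a library used all that remained, and a lone library was assumed to vary like the other groups. In light against control, 0 genes were called in every alternative, and the fold changes of 3 of the 6 genes of the main test turned sign. Dsg2, not tested there, had log2 fold changes from -4.38 to 3.66 over the alternatives that tested it. With libraries left out, Pkp1 ranged from -0.16 (without control 1, and -0.15 without light-exposed 2) to 0.24, Jup from -0.14 (without control 2, and -0.12 without light-exposed 1) to 0.19, and Perp from -0.072 (without light-exposed 2) to 0.86. The share of Dsp in the summed level with minocycline, 10.3%, became 8.32% with the longest transcript and 4.52% with coding length.

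With the replicate number as a block, 0 desmosome genes were called in light against control and their median log2 fold change was 0.23. That median, 0.26 without the block, rests on 6 genes. Over the same 6 it was 0.035 (without light-exposed replicate 2) to 0.52 with libraries left out. Medians elsewhere in this section cover the genes each setting tested, whose number differs between settings. The deviations of same-numbered libraries correlated at -0.0075 across 14349 genes, so the samples share only a number. No paired analysis was possible because of the identical minocycline headers wherever that group enters. Over all results and settings with minocycline, no direction turned. Low counts limit the cadherins and Pkp3, which held 4 counts or fewer per library without minocycline apart from Dsc2.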
